A study of Mus musculus with 8 samples.

Results

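A set of 57 genes was close to silent in control quadriceps femoris (QF) muscle and had reads in every library from muscle of mice labelled Grpel1 knockout. They were the rows of the count table in which the raw counts of the 4 WT libraries summed to 10 or less and each of the 4 KO libraries held at least 20 raw counts. These limits were met by 61 of the 14012 genes of the count table, a background of 0.435%. Fgf21, Gdf15, Acox2 and Chrng met them too and were left out, as were Myh3 and Myh8, whose WT counts summed to 148 and 364. The choice rests on the counts of both groups, so the KO and WT values of the 57 genes are a description and no test of that difference is given for them.

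KO libraries came from QF of skeletal muscle specific Grpel1 knockout mice, named Grpel1 smk -/- in the labels, and WT libraries from control mice of the genotype Grpel1 flox/flox, with 1 library of polyadenylated RNA per mouse. In the knockout a tamoxifen-inducible Cre under the human skeletal muscle actin promoter removes Grpel1 from muscle fibres. The other cells of the muscle keep the gene. All mice were male, the induction began in juvenile animals, and the muscle was taken at an end point of rapid weight loss. Whether the 4 control mice also received tamoxifen is not given in the sources used here, so tamoxifen and the loss of Grpel1 cannot be told apart in these libraries. Total counts ran from 16017565 to 20361144 per library. CPM, a gene's share of the counts of its library times 1e6, is scaled here by TMM, the trimmed mean method of edgeR. Counts over the whole of Grpel1 did not separate the groups, with 68.4 ± 3.04 CPM in WT and 65.3 ± 6.11 in KO (SD, n = 4, adjusted p = 0.49 by edgeR), so directions rest on the labels.

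GRPEL1 is the nucleotide exchange factor of the Hsp70 chaperone that pulls proteins into the mitochondrial matrix. Muscle whose mitochondria fail is known to switch on the transcription factor ATF4 and its targets for amino acid uptake and redox defense. Adult muscle fibres keep embryonic genes and the genes of epithelia, nerve and gland off, and denervated or regenerating fibres are known to reopen a part of the embryonic set.

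Promoters were searched for 4 short motifs that belong to those settings or to the start site, and a few stretches that hold them are shown here. The first is TGATGNAA, the composite site of C/EBP and ATF proteins, on either strand. RefSeq promoter windows on GRCm38.p6, from 250 bases before to 50 bases after the start, could be matched to 44 of the 57 genes. The other 13, among them Gdf5, Gm7325, Pmaip1, Slc7a3, Soat2 and Stac2, had no window and were not searched. TGATGNAA was in the windows of 2 of the 44 genes, Slc7a11 and Tac4, or 4.55%, beside 4.51% of all 27025 genes with a window and 2.75% of the 10679 genes of the count table with a window. The Slc7a11 stretch lies on the minus strand at chr3:50443638-50443694 and holds the motif once in each direction, beginning 66 and 47 bases before the start. The Tac4 stretch lies on the plus strand at chr11:95261425-95261462, with the motif 89 bases before the start. Capitals mark the motif.
Slc7a11: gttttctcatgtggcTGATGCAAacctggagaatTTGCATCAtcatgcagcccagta
Tac4: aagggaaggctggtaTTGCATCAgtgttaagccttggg

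TGACNNNGC, the antioxidant response element bound by NRF2, was in the windows of 6 genes (Gal, Igfbp2, Klk1b26, Lrp8, R3hdml and Rasef), or 13.6%. This stood beside 17.2% of the genes of the table and 14.0% of all genes with a window. CAGCTG, an E-box used by the myogenic factors, was in the windows of 9 genes, or 20.5%, beside 18.5% and 18.3%. TATAAA, the core of the TATA box, was in 6 windows (Cldn2, Gm6559, Krt8, Linc-md1, Mmp12 and Ripply1), or 13.6%, beside 9.15% of the genes of the table and 15.7% of all genes with a window. Counted on the strand of the gene alone, TATAAA kept these 6 genes, beside 5.58% and 9.77%. Linc-md1, Cldn2 and Krt8 hold the E-box and TATAAA together, at differing places. On the strand of the gene TATAAA begins 62 bases before the start in Linc-md1, 35 before in Cldn2 and 1 before in Krt8. The E-box begins 61 bases before the start in Cldn2, but 15 bases after it in Linc-md1 and 40 after it in Krt8. The stretches of Linc-md1 and Cldn2 are shown, both on the plus strand, at chr1:20669805-20669917 and chrX:139800732-139800793. Capitals mark the E-box and TATAAA.
Linc-md1: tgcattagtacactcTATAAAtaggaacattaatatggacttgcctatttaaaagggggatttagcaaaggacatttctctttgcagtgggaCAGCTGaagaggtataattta
Cldn2: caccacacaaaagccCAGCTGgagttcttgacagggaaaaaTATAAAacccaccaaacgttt

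The windows matched to 44 of the 57 genes were poorer in CpG than those of the table. The observed over expected CpG ratio had a median of 0.343, beside 0.751 in the genes of the table, and 29.5% of the genes with a window reached 0.6, beside 69.4%. The genes of the table were not chosen for low WT counts, and genes with WT counts as low were not compared apart. A match to a motif is a description of the letters and not a site of binding.

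In absolute terms the genes stayed low. All 57 together took 47 to 82 counts in each WT library and 3759 to 4859 in each KO library, which is 0.0218% to 0.0251% of the counts of a KO library. Per kb of exon their KO levels ran from 0.0740 CPM per kb in Bsn to 13.5 in Linc-md1, with a median of 1.17 beside 4.45 over all genes of the table. The median gene of the set stood at percentile 24 of the KO levels. In bulk muscle fewer cells of a type and less RNA per cell cannot be told apart, and the same holds for more of either.

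WT counts were 0 in all 4 libraries for 10 genes (among them Adm2, Akr1b7, Cldn2, Fam227b, Fibcd1, Gm6559, Mmp12, R3hdml and Vmn2r3). A further 20 had 1 to 3 WT counts and 27 had 4 to 10. A count of 0 allows up to 3 counts, so folds of the 10 genes are lower bounds against 3 counts over the 4 WT libraries together, or 0.0522 CPM. For the others the fold is a ratio of summed counts scaled to library size with its exact 95% counting interval. Intervals and bounds cover counting error only. That the WT and KO counts of a gene do not overlap follows from the choice.

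**Figure D1:**
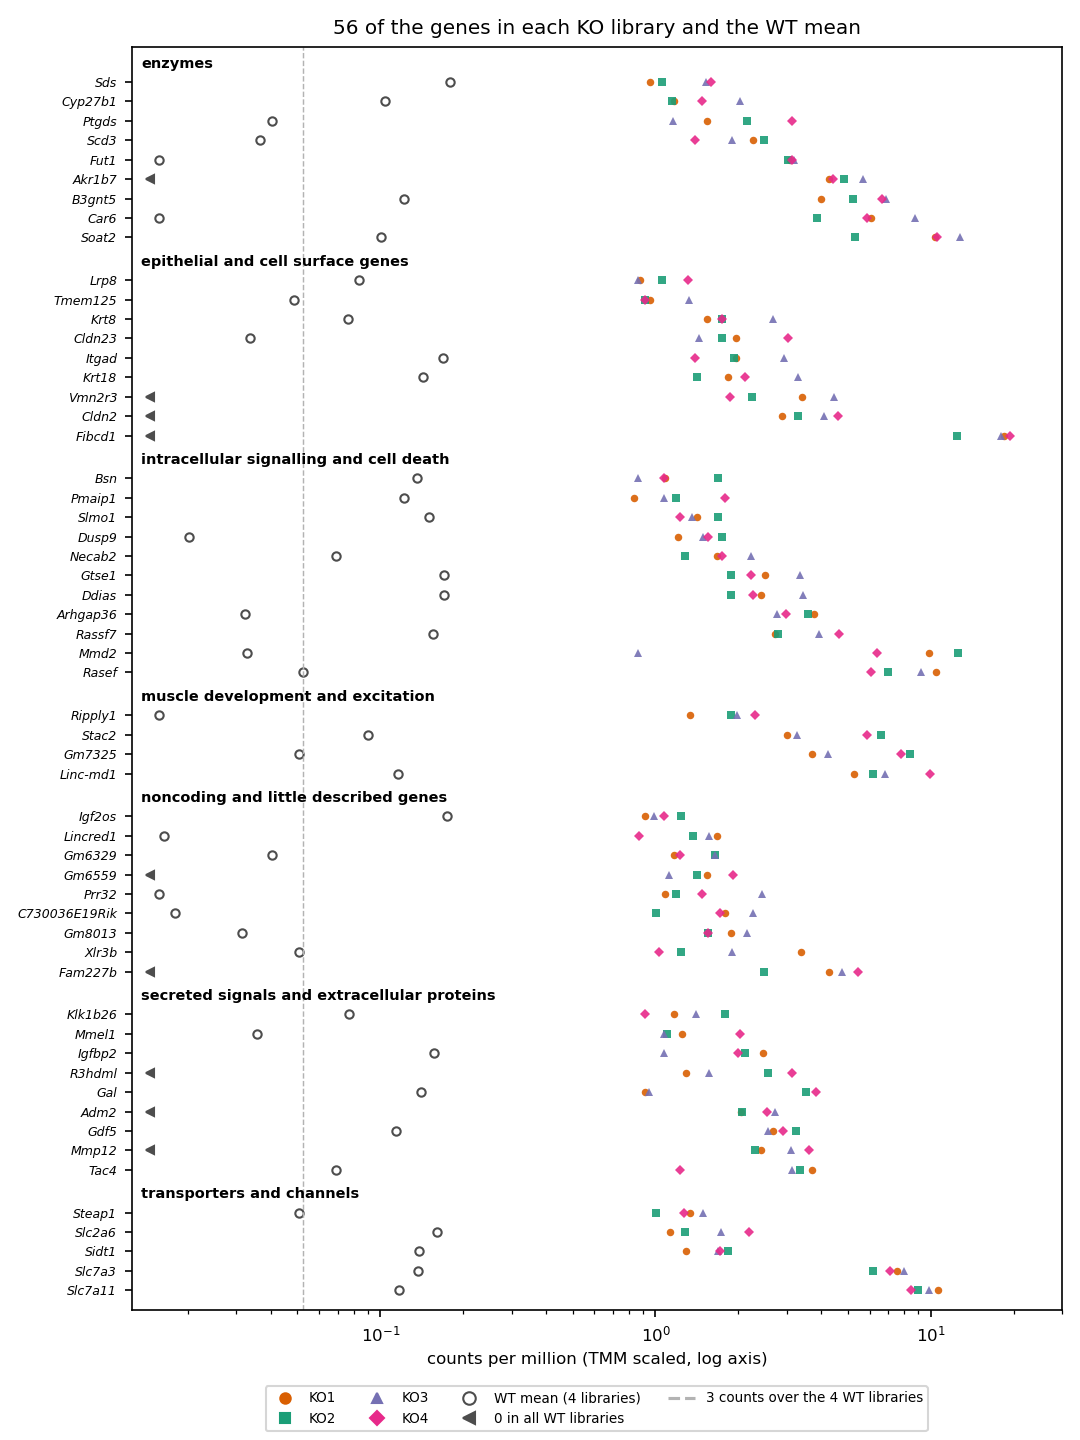
CPM (TMM scaled, log axis) of 56 of the 57 genes, grouped by role and ordered by KO mean, with 1 filled symbol per KO library, an open circle for the mean of the 4 WT libraries, a triangle at the left edge for genes at 0 in every WT library, and a dashed line at 0.0522 CPM, the level of 3 counts over the WT libraries. KO symbols lie between 0.834 and 19.4 CPM and every WT mean at or under 0.180 CPM; the KO symbols of Fut1 coincide and those of Mmd2 spread most widely.

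Of all genes tested 23.6% were called higher and 21.1% lower in KO at an adjusted p under 0.01 (edgeR), and the counts of relatives given here are to be read against these shares. Over all genes the log2 fold change had a median of 0.065. TMM factors were 0.75 to 0.84 in WT and 1.19 to 1.33 in KO, and library totals alone would move that median to 0.733 and the calls to 8498 higher and 873 lower, beside 3303 and 2962 with TMM. Under library totals the falls of Slc7a8, Akr1b3, Ryr1, Actc1, Jam2, Vldlr, Fbxo32 and St3gal5 given here kept their sign and did not pass.

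Fibcd1, a membrane receptor with a fibrinogen domain that binds acetylated sugars such as those of chitin, had the highest level in CPM. Its counts were 0 in every WT library and 441, 273, 436 and 487 in KO1 to KO4, or 17.1 ± 3.09 CPM (SD, n = 4), at least 329.5-fold higher. KO2 was the lowest and the other 3 lay close together. Of 9 other genes of fibrinogen-domain proteins and acetyl-group recognition, Angptl6 rose (4.32 ± 0.869 to 23.7 ± 2.86 CPM, log2 fold change 2.46, adjusted p = 9.1e-07 by edgeR) and Angptl7 was called lower (-2.16, adjusted p = 0.004), with WT and KO values that overlapped and a call lost under 6 of 13 alternatives. The other 7 did not pass, among them Angptl2, the highest of them per kb of exon in WT (89.7 ± 10.9 and 89.6 ± 19.3 CPM). The median of the 9 was -0.63, and 0.02 with library totals.

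By the median SD as a percent of the mean over the KO libraries, the transporters were the most even role group, at 15.01%. Their 6 genes ran from 9.69% to 30.2%, a range that overlapped those of all other groups. Slc7a11, the cystine and glutamate exchanger that feeds glutathione synthesis, had 0, 1, 3 and 3 counts in the WT libraries and 254, 197, 239 and 214 in KO, or 9.50 ± 0.921 CPM, 78.0-fold higher (95% interval 37.7 to 194.5). Slc7a3, a carrier of cationic amino acids, had 2, 4, 0 and 2 counts in WT and 181, 135, 194 and 179 in KO, or 7.21 ± 0.778 CPM, 52.0-fold higher (26.2 to 121). In both genes all 4 KO libraries lay within 1.30-fold of each other. Of their 9 relatives in the Slc7 and Slc3 families, 3 rose and 1 fell, with a median log2 fold change of 0.37, or 5 higher with a median of 1.03 with library totals. Slc7a5, the light chain of the large neutral amino acid transporter, went from 1.85 ± 0.351 to 140 ± 16.9 CPM (6.22, adjusted p = 1.8e-08 by edgeR). Slc7a1, the cationic carrier found in most cells, went from 4.74 ± 0.779 to 62.9 ± 10.8 CPM (3.72, adjusted p = 1.2e-07). Slc3a2, the heavy chain shared by Slc7a5 and Slc7a11, rose by 2.36 (adjusted p = 3.4e-08), and Slc7a8 fell by 0.87 (adjusted p = 4.8e-05), all on the log2 scale. Slc7a5 and Slc3a2 had measurable WT levels, while the WT counts of Slc7a3 and Slc7a11 summed to 8 and 7.

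Other transporters were low. Sidt1, of the SID1 family of membrane proteins, had 31 to 43 KO counts, and Slc2a6, a hexose transporter, had 27 to 55. Steap1, of a family of metalloreductases, had 22 to 36.

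Slc7a3, Slc7a11, Fgf21 and Gdf15 belong to a list of ATF4 and CHOP factors and targets that also holds 27 tested genes. Of these 23 rose and 1 fell, with a median of 2.38. Trib3, a pseudokinase induced by stress, rose from 1.16 ± 0.533 to 149 ± 9.73 CPM (6.98, adjusted p = 2.9e-08 by edgeR), and Atf4 itself from 173 ± 17.2 to 413 ± 35.7 CPM (1.26, adjusted p = 3e-06). Vldlr, a lipoprotein receptor, fell by 0.77 (adjusted p = 0.00054). Slc7a11 and Akr1b7 also belong to a list of NRF2 targets, of whose 20 tested genes 12 rose and 8 did not pass, with a median of 0.61, or 16 higher with a median of 1.28 with library totals. Akr1b8 rose by 2.53 (adjusted p = 8e-05) and Pgd, of the pentose phosphate pathway, by 2.23 (adjusted p = 0.00018). Pgd stood at 17.8 to 44.2 CPM in WT and at 195, 179, 88.6 and 107 CPM in KO1 to KO4. Fth1, the ferritin heavy chain and the highest of the list per kb of exon in WT, rose by 0.51 (adjusted p = 0.00085).

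**Figure D2:**
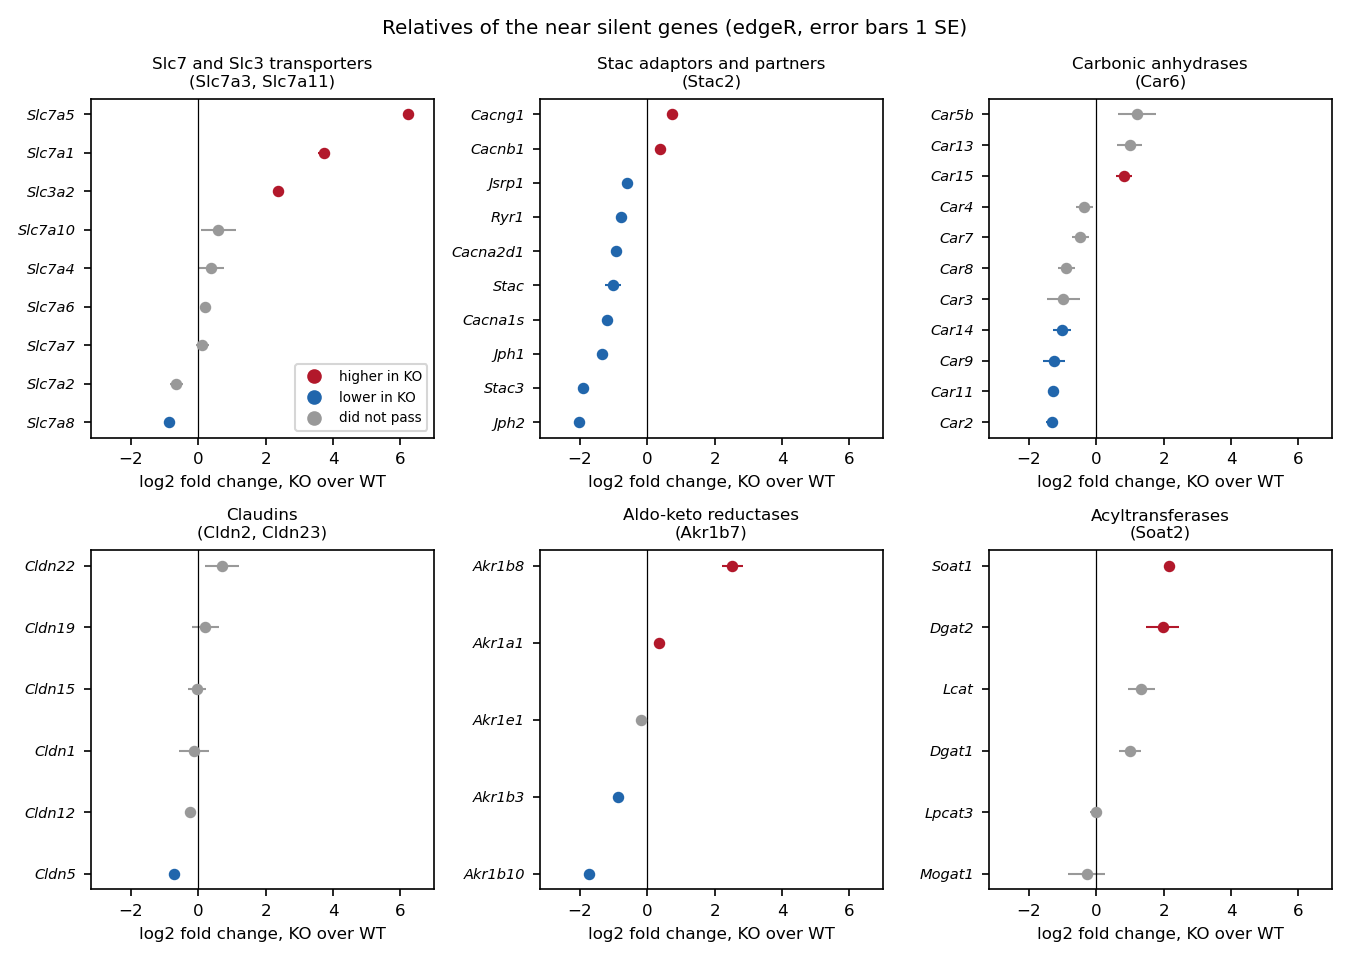
Log2 fold changes of KO over WT (edgeR, error bars 1 SE, n = 4 per group) of genes related to 8 of the 57 genes, in 6 panels whose titles name those genes in brackets; red marks genes higher and blue genes lower at an adjusted p under 0.01, and gray genes that did not pass. Slc7a5, Slc7a1 and Slc3a2 stand to the right, while 8 of 10 Stac adaptors and partners stand to the left of 0 (5 lower with library totals).

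The enzymes were 9 genes. Soat2, which esterifies cholesterol in liver and intestine, had 0, 3, 2 and 1 counts in WT and 249, 116, 310 and 266 in KO, or 9.77 ± 3.17 CPM, 94.7-fold higher (43.4 to 258.8). KO2 was the low library. Of 6 tested acyltransferase relatives 2 were called higher, with a median of 1.17, or 5 with a median of 1.83 with library totals. Soat1, the form found in most tissues, rose from 2.83 ± 0.406 to 12.7 ± 0.996 CPM (2.16, adjusted p = 7.5e-07 by edgeR). Dgat2, which makes triglyceride, was called higher by 1.97 (adjusted p = 0.0065), a call lost when WT1, WT2, KO1, KO2 or KO4 was left out, with values of 1.61 to 2.02. Its values were 66.8, 73.1, 17.96 and 107 CPM in WT1 to WT4 and 420, 274, 117 and 228 CPM in KO1 to KO4. The summed level of 5 adipocyte markers, whose adjusted p ran from 0.08 to 0.52 by edgeR, was also highest in KO1 and lowest in KO3, at 1480, 780, 346 and 793 CPM in KO1 to KO4, beside 29.3 to 852 in WT. Their part in the levels of Dgat2 and Pgd was not tested. Scd3, a stearoyl-CoA desaturase of skin, had 35 to 54 KO counts.

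Akr1b7, an aldo-keto reductase of adrenal gland and vas deferens, had no WT count and 102, 106, 138 and 111 in KO, or 4.80 ± 0.647 CPM, at least 92.0-fold higher. Its 5 tested relatives split, with 2 higher and 2 lower (3 and 1 with library totals). Akr1b8 rose as given above and Akr1a1, the highest of them per kb of exon in WT, was called higher by 0.35 (adjusted p = 0.0022 by edgeR, not passed without KO1 or without KO4), while Akr1b10 fell from 54.6 ± 5.97 to 16.5 ± 0.286 CPM (-1.72, adjusted p = 3.1e-07) and Akr1b3 fell by 0.86 (adjusted p = 3e-06).

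Car6, the secreted carbonic anhydrase of saliva, had 1 read in the 4 WT libraries and 146, 84, 212 and 148 in KO, or 6.14 ± 2.01 CPM. The single WT read leaves its 356-fold ratio with an interval from 63.7 to 14100. Of 11 other carbonic anhydrases 4 fell and 1 was called higher, with a median of -0.89, or -0.23 with 2 higher and 2 lower with library totals. Leaving out WT1, KO1, KO2 or KO3 gave 2 lower, and the median was -0.46 without WT4. Car2 fell by 1.31 (adjusted p = 0.00013 by edgeR) and Car11 by 1.29 (adjusted p = 1.4e-05), and Car15 was higher by 0.83 (adjusted p = 0.0096), a call lost under 10 of 13 alternatives. Car3, the main form of muscle, had 1709 ± 1320 CPM in WT and 864 ± 273.9 in KO and did not pass (adjusted p = 0.11).

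Fut1 makes the H antigen by adding fucose, and B3gnt5 starts the lacto-series of glycosphingolipids. Fut1 had 0, 0, 0 and 1 counts in WT and 74, 66, 77 and 79 in KO, or 3.11 ± 0.0679 CPM, 178.8-fold higher (31.8 to 7084). It lies on chromosome 7 beside Fgf21, in the opposite direction, with 2115 bases between the ends of the 2 spans and no other gene of the table between them. Fgf21 was at 0 in WT and at 694, 787, 430 and 570 counts in KO. The next genes on either side were Rasip1 (24.8 ± 4.42 CPM in WT and 19.1 ± 0.707 in KO, adjusted p = 0.023 by edgeR), Mamstr (0.18, adjusted p = 0.27), Bcat2 (-0.25, adjusted p = 0.055) and Fut2 (0.51, adjusted p = 0.12), none of which passed. B3gnt5 had 2, 4, 0 and 1 counts in WT and 96, 114, 167 and 167 in KO, or 5.69 ± 1.34 CPM, 46.9-fold higher (22.6 to 117). Of 15 tested glycosyltransferases of these pathways 3 rose and 2 fell, with a median of 0.05, or 0.72 with 8 higher with library totals. Ugcg, the first enzyme of glycosphingolipid synthesis, rose by 1.22 (adjusted p = 3.4e-06), B4galt6 by 1.46 (adjusted p = 5.4e-05), and St3gal5, which makes the ganglioside GM3 and was the highest of them per kb of exon in WT, fell by 0.94 (adjusted p = 0.00013). B4galt1 was called lower by 0.26 (adjusted p = 0.0081), a call lost under 6 of 13 alternatives and reversed with library totals (0.41).

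Cyp27b1, which makes the active form of vitamin D, had 25 to 49 KO counts, Ptgds, a prostaglandin D synthase, 28 to 79, and Sds, the serine dehydratase of liver, 23 to 40. The span of Sds overlaps that of Plbd2 on the other strand by 13 bases.

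The group of muscle development and excitation holds 4 genes. Gm7325 encodes myomixer, the small membrane protein with which myoblasts fuse. Its counts were 0, 2, 1 and 0 in WT and 89, 183, 103 and 197 in KO, or 6.04 ± 2.40 CPM, 115-fold higher (39.2 to 560). KO2 and KO4 stood at 8.38 and 7.83 CPM and KO1 and KO3 at 3.71 and 4.25. Stac2, an adaptor that binds L-type calcium channels, had 2, 1, 1 and 1 counts in WT and 72, 144, 79 and 148 in KO, or 4.69 ± 1.82 CPM, 53.5-fold higher (22.8 to 165.6), with the same libraries high. Ripply1, a transcriptional repressor of the somites, had 32 to 58 KO counts beside 1 in WT.

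Linc-md1, a muscle noncoding RNA known to act in myoblast differentiation, had 0, 3, 2 and 2 counts in WT and 126, 135, 165 and 250 in KO, or 7.05 ± 2.03 CPM, 58.3-fold higher (28.2 to 145.6). KO4 was the highest at 9.94 CPM. Its span in the files holds the RefSeq hairpins of miR-206, at chr1:20679010-20679082, and miR-133b, at chr1:20682769-20682887, both on the plus strand and both known from muscle. Mature miRNAs were not measured in these polyadenylated libraries. The mature sequences from RefSeq are shown because they are what the locus is best known for, with the seed (bases 2 to 8) in capitals.
mmu-miR-206-3p: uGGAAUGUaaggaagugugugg
mmu-miR-206-5p: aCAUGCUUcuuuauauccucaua
mmu-miR-133b-3p: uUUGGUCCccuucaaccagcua
mmu-miR-133b-5p: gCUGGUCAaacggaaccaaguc

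The other Stac genes in the table, Stac3 and Stac, were lower in KO. Stac3, the adaptor that adult muscle uses for excitation-contraction coupling, fell from 383 ± 64.5 to 102 ± 6.37 CPM (-1.91, adjusted p = 1.1e-06 by edgeR). Of the 10 tested adaptors and partners 8 were called lower and 2 higher, with a median of -0.97, or 5 and 2 with a median of -0.31 with library totals. Jph2, which ties the plasma membrane to the calcium store, fell by 2.02 (adjusted p = 4.3e-07), Ryr1, the release channel of that store, by 0.79 (adjusted p = 0.0011), and Cacna1s, the pore of the L-type channel, by 1.21 (adjusted p = 3.3e-05). Cacng1 rose by 0.73 (adjusted p = 0.00012) and Cacnb1 was called higher by 0.39 (adjusted p = 0.0074), a call lost under 7 of 13 alternatives. Per kb of exon Stac2 reached 1.54 CPM per kb in KO.

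Of 21 tested genes of fusion and myogenesis 12 rose and 3 fell, with a median of 1.35, or 17 higher with a median of 2.04 with library totals. Tmem8c, which encodes myomaker, the partner of myomixer, had WT values of 0.242, 1.31, 0.143 and 0.441 CPM and KO values of 22.7, 41.3, 22.8 and 53.0 CPM (5.96, adjusted p = 5.6e-06 by edgeR), with KO2 and KO4 high as in Gm7325. Myh3 and Myh8, the embryonic and perinatal myosins left out of the set, rose by 6.92 (adjusted p = 6.5e-07) and 6.72 (adjusted p = 2.2e-07). Actc1, the cardiac actin, fell by 1.47 (adjusted p = 0.0018) and Jam2 by 0.72 (adjusted p = 0.00018). Of 20 tested genes known from denervated muscle 15 rose and 3 fell (1 with library totals), with a median of 3.28. Dlg2 (7.55, adjusted p = 6.9e-08) and Sln, the small inhibitor of the calcium pump (7.33, adjusted p = 3.2e-07), rose most, and Dach2, a repressor of myogenin, fell by 4.86 (adjusted p = 1e-05). Of the ubiquitin ligases of muscle atrophy, Fbxo32 fell by 1.04 (adjusted p = 0.0018) and Trim63, the highest of the list per kb of exon in WT, was at -0.63 (adjusted p = 0.012). Dach2 was also 1 of the 2 genes that met the rule turned around, with KO counts that summed to 10 or less and at least 20 in every WT library. The other was 1700001O22Rik.

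The secreted signals were 9 genes. Gdf5, a growth factor of the BMP family that forms joints, had 0, 0, 2 and 5 counts in WT and 64, 71, 62 and 73 in KO, or 2.85 ± 0.306 CPM, 23.3-fold higher (11.2 to 58.5). Its 4 KO libraries lay within 1.27-fold. Of 34 tested ligands, receptors, inhibitors and targets of the BMP and GDF family, 7 were called higher and 10 lower, with a median of -0.25, or 13 and 4 with a median of 0.42 with library totals. Nog, which encodes the BMP inhibitor noggin, rose from 5.57 ± 2.79 to 47.2 ± 2.88 CPM (3.10, adjusted p = 2.3e-05 by edgeR), and Gdf6, the closest kin of Gdf5, by 2.49 from near 0 (0.124 ± 0.0417 to 0.714 ± 0.242 CPM, adjusted p = 0.00066). Gdf11 fell by 2.42 (adjusted p = 6.2e-05), and Mstn, myostatin, by 1.49 (adjusted p = 5.8e-06).

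Gal encodes the neuropeptide galanin. Its WT counts were 1, 3, 4 and 0 and its KO counts 22, 77, 23 and 96, or 2.30 ± 1.59 CPM, 16.5-fold higher (8.21 to 38.6). KO2 and KO4 stood at 3.53 and 3.82 CPM and KO1 and KO3 at 0.917 and 0.949. Adm2, a peptide of the calcitonin family also called intermedin, had no WT count and 45 to 66 in KO. Tac4, a tachykinin, had 89, 73 and 76 counts in KO1 to KO3 and 31 in KO4. Igfbp2, which binds insulin-like growth factors, had 26 to 59 KO counts with KO3 lowest. R3hdml, a secreted protein with a likely inhibitor domain, had no WT count and 31, 56, 38 and 79 in KO.

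The proteases were Mmp12, Mmel1 and Klk1b26. Mmp12, the elastase of macrophages, had no WT count and 58, 50, 75 and 91 in KO, or 2.86 ± 0.619 CPM, at least 55.2-fold higher. Of 14 tested metalloproteinases and inhibitors 2 were called higher and 5 lower, with a median of -0.44, or 6 and 1 with a median of 0.22 with library totals. Leaving out WT2, WT4, KO1, KO3 or KO4 gave 3 lower, and the median was -0.10 without WT1. Timp1 rose by 2.2 (adjusted p = 1.6e-05 by edgeR) and Mmp15 fell by 1.43 (adjusted p = 1.2e-06). Mmp11 was called higher by 1.01 (adjusted p = 0.0047) and Mmp9 lower by 2.09 (-2.09, adjusted p = 0.0082), calls lost under 5 and 9 of 13 alternatives. Timp2, the highest of the list per kb of exon in WT, was called lower by 0.61 (-0.61, adjusted p = 0.0034), and was at 0.06 with library totals. Mmel1, an endopeptidase akin to neprilysin, had 24 to 51 KO counts and Klk1b26, of a large family of near-identical kallikrein genes, 23 to 39.

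Mmp12 and Itgad, an integrin subunit of leukocytes with 35 to 71 KO counts, can also come from macrophages. Of 8 macrophage markers 1, Cd68, passed and was higher (3.44 ± 1.72 to 20.8 ± 3.74 CPM, adjusted p = 2.4e-05 by edgeR). Their summed level was 69.7 to 183.9 CPM in WT and 156 to 289.6 in KO. All 8 were higher in KO2 and KO4 than in KO1 and KO3, whereas Itgad was highest in KO3 and Mmp12 in KO4, with KO2 lowest of all for Mmp12. Of 3 neutrophil markers S100a8 alone rose (0.366 ± 0.468 to 22.8 ± 10.7 CPM, adjusted p = 1.5e-05) and made up most of their summed level, 0.458 to 4.20 CPM in WT and 17.3 to 37.8 in KO. S100a9 (adjusted p = 0.31) and Csf3r (adjusted p = 0.074) did not pass, and their WT and KO values overlapped. The part of these cells in the levels of both genes was not tested.

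Krt8 and Krt18, the keratin pair of simple epithelia, lie 23873 bases apart on chromosome 15 in opposite directions. Krt8 had 3, 0, 0 and 1 counts in WT and 37, 38, 65 and 44 in KO, and Krt18 3, 3, 1 and 1 in WT and 44, 31, 80 and 53 in KO. Both were highest in KO3. Among markers of epithelium Cdh1, E-cadherin, had 2 to 10 counts in WT and 4 to 14 in KO and did not pass (0.44, adjusted p = 0.5 by edgeR), with its lowest KO count in KO3. Epcam and Krt5 were not in the table.

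Cldn2, which forms pores for cations and water in tight junctions, had no WT count and 69, 72, 99 and 116 in KO, or 3.72 ± 0.778 CPM, at least 71.7-fold higher. Cldn23 had 35 to 76 KO counts. Of 6 other claudins that were tested 1 passed. Cldn5 of the endothelium was called lower by 0.71 (-0.71, adjusted p = 0.0033 by edgeR), a call lost under 4 of 13 alternatives (-0.05 with library totals). All 6 markers of endothelial cells were called lower with TMM, with a median of -0.74. Their calls with library totals are not given here. Cldn2 lies 18454 bases from Ripply1 on the X chromosome with no gene of the table between them. The neighbor Morc4, 10248 bases from Cldn2, rose from 6.53 ± 0.865 to 13.3 ± 0.892 CPM (1.03, adjusted p = 3.8e-05), and Tbc1d8b did not pass (-0.35, adjusted p = 0.023).

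Lrp8, a receptor for reelin and apolipoprotein E, had 21 to 33 KO counts, and Tmem125, a membrane protein of little known role, 20 to 32. Vmn2r3 belongs to the vomeronasal receptors, many of which are near-identical copies. It had no WT count and 82, 49, 108 and 47 in KO.

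Intracellular signaling and cell death was the largest group with 11 genes. Rasef, a Rab GTPase with a coiled coil, had 1, 1, 0 and 1 counts in WT and 250, 153, 223 and 153 in KO, or 8.18 ± 1.99 CPM, 156.8-fold higher (53.5 to 762). Arhgap36, an inhibitor of protein kinase A, had 0, 1, 0 and 1 in WT and 90, 78, 67 and 75 in KO, or 3.27 ± 0.470 CPM, 93.6-fold higher (25.7 to 776). Rassf7, of the Ras association family, had 2, 4, 1 and 2 in WT and 65, 61, 95 and 117 in KO, or 3.52 ± 0.935 CPM, 22.7-fold higher (11.8 to 50.03). Of 9 other Rassf genes 1 passed, and this gene, Rassf8, was called lower by edgeR (-0.60, adjusted p = 0.0032), a call lost without KO2 and a sign that turned with library totals (0.06). The median of the 9 was 0.23, or 0.90 with 3 higher with library totals. Rassf3, the highest of them per kb of exon in WT, had 66.9 ± 12.7 CPM in WT and 48.8 ± 2.70 in KO (adjusted p = 0.011). Of the kin of Rasef, Cracr2b was at -0.04 (adjusted p = 0.83 by edgeR) and, with library totals, was called higher at 0.61. Rab44 was at 1.98 (0.197 ± 0.185 CPM in WT and 0.837 ± 0.271 in KO, adjusted p = 0.011), with groups that did not overlap, and passed with DESeq2, with library totals, without WT4 and without KO3.

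Mmd2, of the progestin and adipoQ receptor family, had the widest ratio of the highest to the lowest KO library. Its WT counts were 0, 2, 0 and 0 and its KO counts 237, 275, 21 and 160. In CPM the KO libraries stood at 9.88, 12.6, 0.867 and 6.36, so that KO3 met the limit of 20 counts by 1 count while KO2 held 14.5 times its level.

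Pmaip1, the cell death activator NOXA, had 20 to 45 KO counts, and Ddias, a suppressor of cell death after DNA damage, 41 to 83. Gtse1, a regulator of p53 in the cell cycle, had 41 to 81 and Dusp9, a MAP kinase phosphatase, 29 to 39. Slmo1, in RefSeq Prelid3a, belongs to a family that moves phospholipids between mitochondrial membranes and had 31 to 37. The neuronal genes Bsn, the presynaptic scaffold bassoon, and Necab2, a calcium-binding protein, had 21 to 37 and 28 to 54.

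The noncoding and little described genes had 22 to 137 KO counts. Fam227b had no WT count and 102, 54, 115 and 137 in KO, or 4.23 ± 1.27 CPM, at least 82.1-fold higher. Its span overlaps 56528 bases of Fgf7, a fibroblast growth factor on the other strand that rose from 2.195 ± 0.230 to 9.47 ± 1.78 CPM (2.10, adjusted p = 5.4e-06 by edgeR), with KO counts of 245, 150, 264 and 249. KO2 was the lowest for both. In WT1 to WT4 Fgf7 had 25, 38, 28 and 36 counts, where Fam227b had none. The part of Fgf7 reads in the counts of Fam227b was not tested. Igf2os, with WT counts of 2, 3, 3 and 2 and KO counts of 22, 27, 24 and 27, overlaps 7124 bases of Igf2 on the other strand, which rose from 24.95 ± 1.69 to 319 ± 64.5 CPM (3.68, adjusted p = 1e-07). The kit marks strand, but whether the counting used it is not given in the sources used here, so reads of Fam227b and Fgf7, or Igf2os and Igf2, may not have been told apart. Itgad overlaps Cox6a2 by 70 bases in the same way. Cox6a2 had 13676 to 22169 KO counts, and both genes were highest in KO3. It was called higher (501 ± 82.4 to 765 ± 119 CPM, 0.61, adjusted p = 0.0043 by edgeR), a call lost under 5 of 13 alternatives. The part of Cox6a2 reads in the counts of Itgad was not tested.

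Xlr3b, of an X-linked family with near-identical copies, had 0, 2, 1 and 0 counts in WT and 81, 27, 46 and 26 in KO. Prr32, C730036E19Rik, Gm6329, Gm6559, Gm8013 and Lincred1 had between 22 and 59 KO counts each. Over the whole set RefSeq gave 50 genes as protein coding, or 87.7% beside 95.4% of the table, and 7 as long noncoding RNA, or 12.3% beside 3.53%. The X chromosome held 7 of the 57 genes (Arhgap36, Cldn2, Dusp9, Prr32, Ripply1, Slc7a3 and Xlr3b), or 12.3% beside 3.31% of the table. The table was not chosen for low WT counts. For these shares too, genes with WT counts as low were not compared apart.

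How even the 4 KO libraries were was measured by the coefficient of variation (CV) of CPM, the SD as a percent of the mean. The median CV of the 57 genes was 25.7%, with quartiles at 18.3% and 32.8%, where the CV expected from counting error alone had a median of 14.3%. The 5898 other genes with at least 20 counts in every KO library and a mean KO count in the same range had a median CV of 13.4%. Within bins of mean count the medians were 25.1% beside 19.1% at mean counts of 20 to under 40, 26.5% beside 17.5% at 40 to under 100, and 28.8% beside 11.4% at 100 or more. Counting error alone would give 13.9% beside 12.3% in the middle bin and 7.69% beside 6.73% in the upper one, so the 57 genes had somewhat fewer counts within these bins. A second comparison, chosen after the values were seen, was with 45 other genes called higher by 8-fold or more in the same range of counts, whose median CV was 21.5%. These had more counts, with a counting error of 8.37%. The minimum of 20 counts in every KO library keeps the least even genes out of all of these sets.

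**Figure D3:**
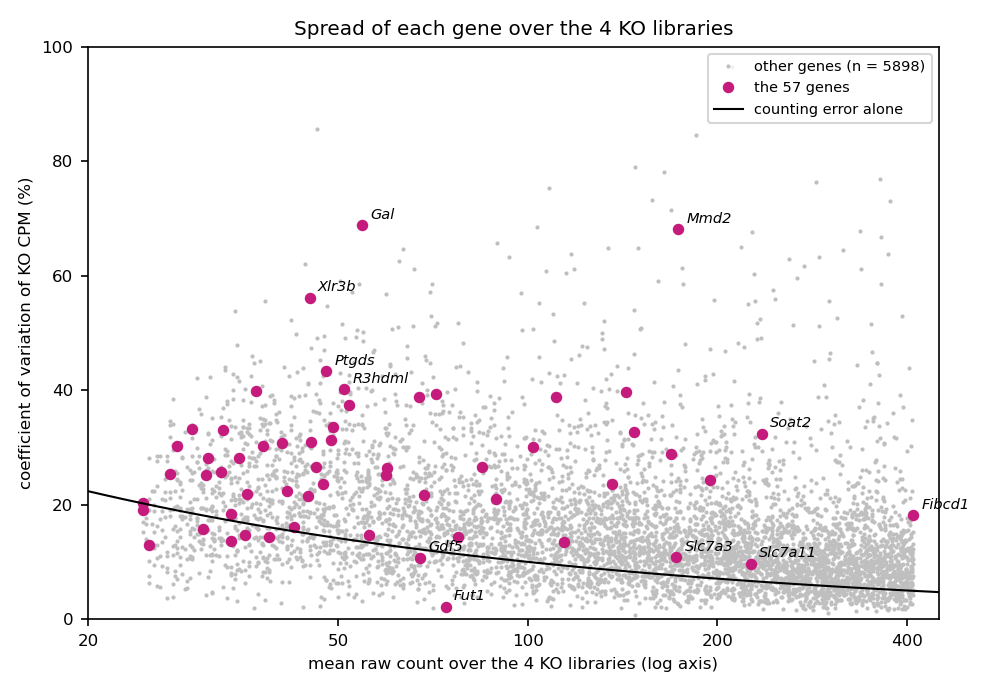
CV of CPM over the 4 KO libraries (percent) against the mean raw KO count (log axis), with the 57 genes in magenta, 5898 other genes in gray and a line for counting error alone. Most of the 57 genes lie above the line; Gal and Mmd2 stand near 70% and Fut1 near 2%.

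By this measure 16 genes had a CV under 20%, 36 between 20% and 40% and 5 above 40%. In 38 genes, or 66.7%, the highest KO library was within 2-fold of the lowest, beside 90.5% of the other genes and 75.6% of the 45 genes higher by 8-fold or more. In 8 genes (Dusp9, Fut1, Gdf5, Igf2os, Sidt1, Slmo1, Steap1 and Tmem125), or 14.0%, the CV was at or under counting error, beside 23.1% of the other genes. This limit is the CV expected from the mean count, and a CV measured in 4 libraries scatters around it. Counting error alone would therefore put many genes at or under the limit. The most even were Fut1 at 2.19%, Slc7a11 at 9.69%, Gdf5 at 10.8%, Slc7a3 at 10.8% and Igf2os at 13%. Fut1 ran from 3.02 to 3.18 CPM. With about 74 counts per library counting error alone would give Fut1 a CV of 11.6%, so its closeness is not a measure of the spread among mice.

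The most uneven were Gal at 68.9%, Mmd2 at 68.2%, Xlr3b at 56.2%, Ptgds at 43.3% and R3hdml at 40.2%. Xlr3b had 3.38 CPM in KO1 and 1.03 to 1.90 in the others. Ptgds had 1.54, 2.15, 1.16 and 3.14 CPM and R3hdml 1.29, 2.56, 1.57 and 3.14 in KO1 to KO4. By role the median CV was 15.01% in transporters, 25.1% in enzymes, 25.2% in signaling and cell death, 25.7% in noncoding and little described genes, 26.5% in epithelial and cell surface genes, 30.99% in secreted signals and 33.8% in muscle development.

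The libraries did not rank the same way from gene to gene. KO3 was the highest library for 21 genes, KO4 for 18, KO2 for 11 and KO1 for 7. Of the other genes KO3 was the highest for 19.3%, KO4 for 22.8%, KO2 for 31.4% and KO1 for 26.5%. With library totals KO4 came first, with 20 of the 57 genes beside 17 for KO3. In 12 genes (among them Dusp9, Gal, Gdf5, Gm7325, Igf2os, Lrp8, Pmaip1, Ptgds, R3hdml, Sidt1 and Stac2) both KO2 and KO4 stood above both KO1 and KO3, which is 21.1% beside 21.7% of the other genes. The reverse held in 14 genes, among them Slc7a11, Slc7a3, Car6, Rasef and Vmn2r3, or 24.6% beside 14.5%. KO3 and KO4 stood above KO1 and KO2 in 17 genes, or 29.8% beside 14.9%. These pair counts are with TMM and moved with library totals. KO2 and KO4 then stood above the other pair in 16 genes, or 28.1% beside 36.3%. KO1 and KO3 did so in 8, or 14.0% beside 5.02%, and KO3 and KO4 in 16, or 28.1% beside 11.6%. The orders of list genes given next are with TMM. KO2 and KO4 were above KO1 and KO3 for 14 of the 21 genes of fusion and myogenesis, Myh3 and Myh8 included, and for all 8 macrophage markers. KO1 and KO3 were above KO2 and KO4 for 7 of 8 markers of muscle fibres, whose summed level was 208900 to 268500 CPM in WT and 71380 to 101600 CPM in KO, and for 8 of 10 Stac adaptors and partners. The part of these differences among the KO muscles in the ranks of the 57 genes was not tested.

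**Figure D4:**
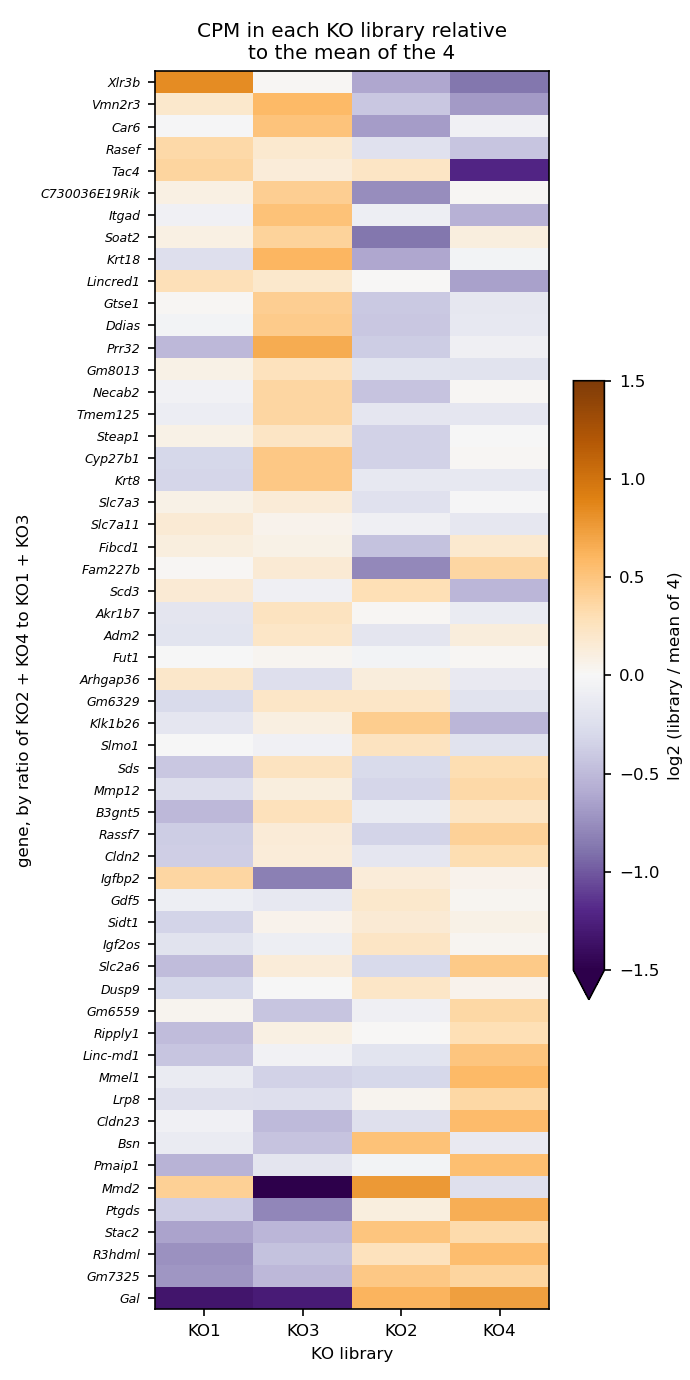
CPM of 56 of the 57 genes in each KO library relative to the mean of the 4 (log2, color), with KO1 and KO3 on the left and KO2 and KO4 on the right, and genes ordered by the ratio of KO2 and KO4 to KO1 and KO3. Gal, Gm7325, R3hdml, Stac2 and Ptgds at the bottom are high in KO2 and KO4, Xlr3b and Vmn2r3 at the top are low there, and Mmd2 in KO3, at 0.117 of the mean, lies beyond the color scale.

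The limits of 10 and 20 counts cut through a continuous range. Just inside stood 9 genes with a WT sum of 9 or 10 (Ddias, Gtse1, Igf2os, Igfbp2, Itgad, Rassf7, Sds, Slc2a6 and Slmo1) and 6 others whose lowest KO count was 20 or 21 (among them Bsn, Lrp8, Mmd2, Pmaip1 and Tmem125). Just outside stood 5 genes with a WT sum of 11 or 12 and 11 genes whose lowest KO count was 18 or 19. Dlg2 missed the rule by 2 WT counts with 705 to 1173 KO counts. Slc26a8 had 11 WT counts and 36 to 44 in KO, and Zp2 had 3 in WT and 52, 18, 82 and 83 in KO. In all, 215 genes had a WT sum of 10 or less and 14 a KO sum of 10 or less. These 2 numbers are not on a like scale. After TMM scaling 3 counts stood for 0.189 to 0.242 CPM in a WT library and 0.119 to 0.137 CPM in a KO library. An upper limit on raw counts is therefore looser in WT than in KO, and a minimum is stricter in WT. Turned around, the rule had a lower ceiling in CPM, set on KO, and a higher minimum, set on WT. It was thus harder to meet on both sides. The table held no gene with fewer than 51 counts in all, so a gene with a WT sum of 10 had to have at least 41 KO counts to be listed.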

How the data were processed

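RNA of QF muscle was measured in 4 KO and 4 WT libraries. The raw counts per gene in the deposited table were made by the authors. They demultiplexed with bcl2fastq 2.20.0.422, trimmed with cutadapt, mapped to GRCm38 with STAR 2.5.4b and counted read pairs over exons with Rsubread, leaving out duplicates, chimeras, multiple hits and low mapping quality. Genes under 50 reads in total had been removed. The annotation release and the strand setting are not given in the sources used here. The FPKM values, the fold changes and p-values made by the authors with DESeq2 1.32.0, which the same deposited table holds, were not used. Exon bases per gene, another deposited column, served for levels per kb.

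The 57 genes, their roles and the lists of related genes were chosen with earlier results of these data known. Counts were scaled by TMM, and all 14012 genes were tested with edgeR 4.0.16 (quasi-likelihood test, group as the only term, Benjamini-Hochberg adjustment, threshold 0.01) in R 4.3.3. The test was checked on simulated data, where it recovered 65% of 100 genes changed 2-fold and 100% of 100 changed 4-fold. The simulation changed few genes, evenly up and down, so it did not check the scaling. DESeq2 1.42.0, other scalings, a filter on low counts, a replicate block and leaving out each library were alternatives, each listed in the closing section where it changed a result. Genes were given in full, library by library, if every KO library held at least 50 counts or if they were among the 5 most or 5 least even. Of each list of relatives, the 2 largest increases and decreases past the threshold and the gene highest in WT per kb were named; other genes named were chosen after their values were seen. Chromosome, biotype, miRNA and promoter data are RefSeq's for GRCm38.p6. The mice carry separate animal labels, so each library is a separate animal. A few items of the lists are not reported here.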

Additional observations from a re-analysis of the deposited data

Results flagged for a closer look

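Among the values given for the 57 genes, 1 was set apart by a single library. Tmem125 stood at 1.32 CPM in KO3 and at 0.914 to 0.959 CPM in the other 3 KO libraries, so that the gap to the nearest library was 0.890 of the whole range. Chance alone flags about 1 in 20 groups of 4 libraries at this limit, and all 57 genes were examined. The raw counts behind the values were 23, 20, 32 and 23 in KO1 to KO4.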

How the results depend on the processing

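The number of genes chosen follows the limits: 36 with a WT sum of 5 or less, 94 with 20 or less, 136 with each KO library at 10 or more, 18 at 50 or more, and 31 with limits on TMM-scaled counts, of which 36, 57, 57, 18 and 31 were among the 57. Leaving out a library gave 60 to 76 genes and a median CV of 20.9% to 27%, lowest without KO4. Across the table, library totals alone gave 8498 higher and 873 lower calls and the other scalings, the filter, DESeq2, the threshold of 0.05 and the omission of any library 2596 to 4436 higher and 2600 to 3848 lower. Library totals alone gave 124 calls higher and 14 lower among entries of the lists, beside 85 and 42, and reversed Rassf8 (0.06), Cracr2b (0.61), B4galt1 (0.41), Angptl2 (0.68) and Timp2 (0.06). The change follows from leaving out the TMM factors. Leaving out a library gave 75 to 83 entries higher and 35 to 41 lower.

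Same-numbered WT and KO libraries come from different mice, and their deviations correlated at 0.12, 0.003, 0.42 and 0.14, and since not every value was over 0.1 the numbers were not taken to pair the samples. With the replicate block 3215 genes were higher and 2908 lower, and 88 and 42 list entries. For 3 of the 4 numbers the libraries correlated best with the library of their own number. The counts of 20 to 40 that many KO libraries hold limit what can be said of evenness, since counting error alone then gives a CV of 17.5%.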
